A study of Mus musculus with 8 samples.

Results

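The transcripts of the constitutive proteasome were followed in mouse liver before and after extended resection, with and without overexpression of A20. Members were all probe sets annotated to 1 gene symbol that begins with Psma, Psmb, Psmc, Psmd, Psme, Psmf or Psmg followed by a number, apart from Psmb8, Psmb9 and Psmb10. The rule took 99 of the 45101 probe sets on the array, for 46 of the 18193 genes named by a single symbol. Of these genes, 7 encode the alpha ring and 7 the beta ring of the 20S core, 6 the ATPases and 3 the other subunits of the base of the 19S cap, 8 its lid, 3 activators, 1 an inhibitor and 7 assembly chaperones. Another 2, Psma8 and Psmb11, encode core subunits known from testis and thymus, and the last 2, Psmc3ip and Psme3ip1, carry such a symbol although their products are not subunits. The activator Psme2 was read by no probe set of its own, since the only one that names it also names Psme2b.

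The proteasome degrades proteins that carry chains of ubiquitin. Its 20S core is a barrel in which rings of alpha subunits gate the entry and rings of beta subunits hold the proteolytic sites, and its 19S cap binds the ubiquitin chain, removes it and threads the unfolded protein into the barrel. In most cells the subunits are made together and their transcripts are abundant, while interferon gamma induces Psmb8, Psmb9 and Psmb10, which replace the proteolytic subunits Psmb5, Psmb6 and Psmb7 in the immunoproteasome. A20 is a ubiquitin-editing protein that restrains NF-κB.

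Liver RNA of BALB/c mice, 8 weeks old, was hybridised to 8 Affymetrix arrays, with RNA of 3 animals pooled on each array and 2 arrays in each of 4 groups. All mice had received a recombinant adenovirus (rAd.) 5 days before a 78% liver resection, so that no group was free of virus, and the transgene reaches about 30% to 40% of hepatocytes. The groups were livers given rAd.βgal, the control virus, before resection (pre-βgal) and after it (post-βgal), and livers given rAd.A20 before (pre-A20) and after (post-A20), the earlier samples being the liver portion removed at surgery and the later ones the remnant 24 h after it. Pools from before and after may therefore hold the same mice, but which arrays would pair is not stated. None of the 4 groups had sham surgery, and the remnant is a different part of the liver from the portion removed. Resection, part of the liver and time after surgery therefore cannot be told apart. The treatment field of both post-A20 samples repeats the rAd.βgal wording, whereas their titles and source names give A20, which was followed here.

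The unit throughout is the linear normalized intensity, while tests were made on log2 of the intensity plus 16 and used, for each gene, the probe set of highest mean. All 46 genes were tested among 17790, and their tested probe sets had a mean of at least 40, the minimum for a probe set to be kept, in all 4 groups. Over all member probe sets, 97 were kept and 94 reached that minimum in all 4 groups. A gene is called where its p from limma, adjusted by Benjamini-Hochberg over all genes tested, is under 0.05. Array medians were 153 to 166. As a measure of RNA integrity, the 3′ probe set of β-actin was divided by the 5′ one, a ratio that degradation raises. It reached 7.0 for replicate 1 of pre-βgal and 3.64 for replicate 1 of post-βgal, and 1.27 to 1.62 for the other 6 arrays. Markers of hepatocytes summed to 89285 to 114021 over the 8 arrays (9 of 10 listed genes tested, none below 40 on any array). Within this list Alb ran from 18087 to 19358, while Apob ran from 1047 to 6348 and Tat from 1766 to 8760. Apob and Tat were lowest in pre-βgal replicate 1 and highest in post-A20 replicate 2. Markers of neutrophils summed to 2102 to 6256 (8 of 10), and those of Kupffer cells and macrophages to 6074 to 10754 (10 of 10). The last 2 sums were lowest in pre-A20, but not every listed gene followed. The widest ranges in the neutrophil list were those of S100a8 (151 to 1837) and S100a9 (114 to 2159). Mmp9 of that list (388 and 415) and the macrophage marker Marco (248 and 254) had their highest group mean in pre-A20.

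Of the members, 31 encode core or cap subunits of the 26S particle, and these are meant below by its 31 subunits. Subunits without a Psm symbol, such as Sem1, lie outside the rule. Across the 8 arrays, the ratio of the highest to the lowest array had a median of 1.61 among the 31. It ran from 1.2 to 2.77, beside a median of 1.52 over all genes tested. By limma none of the 31 was called in any of 7 comparisons, in which 0.0281% to 8.59% of all genes were and 0 to 7 of the 31 had an unadjusted p under 0.05. The comparisons were resection within each transgene, transgene before and after resection, the average of each factor, and their interaction. The single member that passed the test was Psme3ip1, whose product binds an activator and is not part of the particle. The figure of all members by array shows most rows of the core and cap in paler colours than that of Psme3ip1. An exception is the dark cell of Psmd8 in pre-βgal replicate 1.

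**Figure D1:**
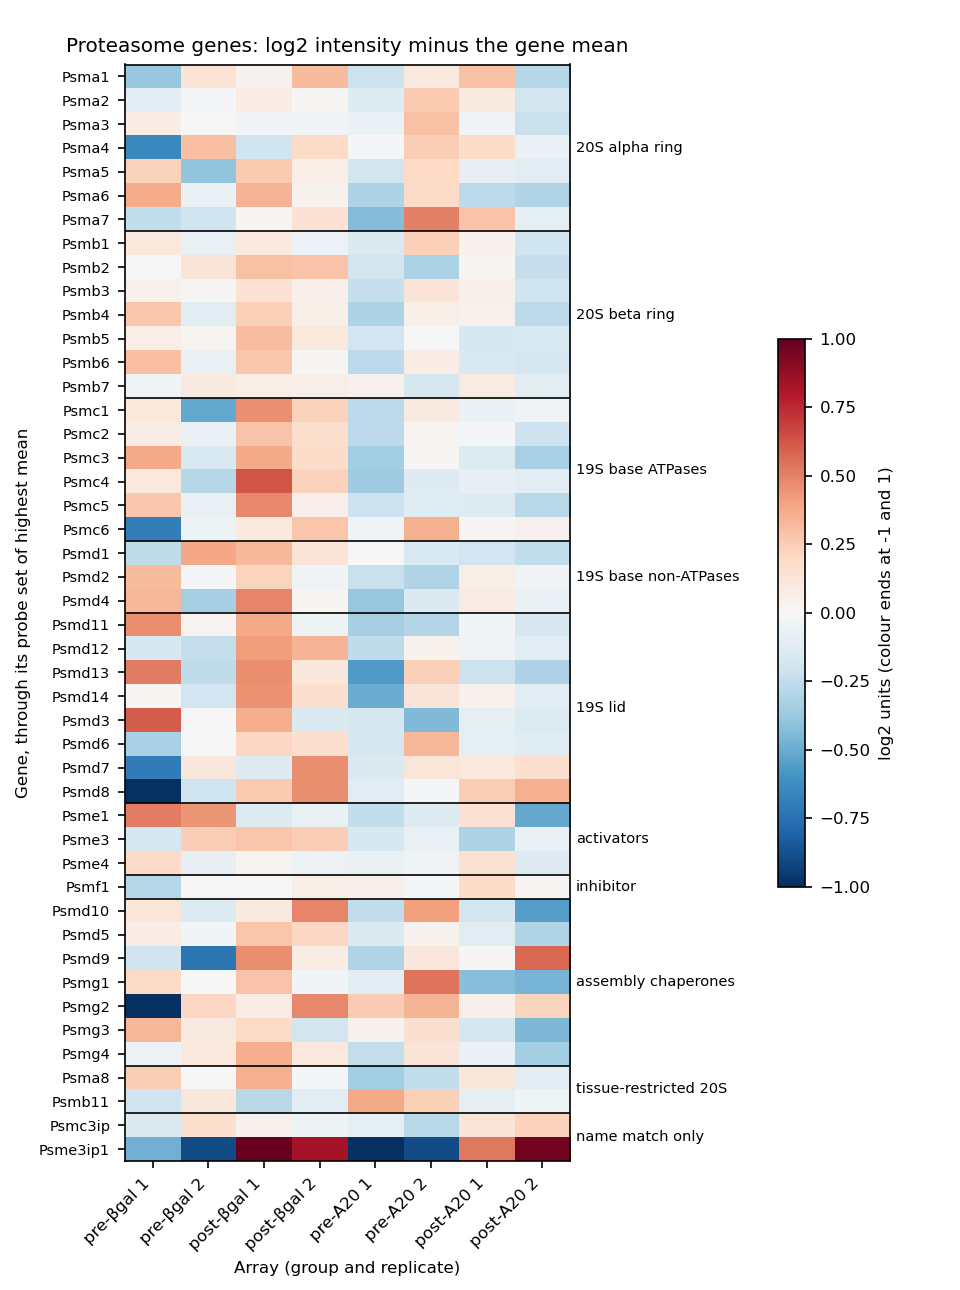
Each row is 1 of the 46 genes, ordered by subcomplex, and each column 1 array. Colour gives log2 intensity minus the mean of the gene over the 8 arrays, and the scale ends at -1 and 1. Psme3ip1, the lowest row, turns from blue before resection to red after it for both transgenes, and pre-βgal replicate 1 holds the darkest blue cells elsewhere, in Psmd8 and Psmg2.

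Psme3ip1 encodes a nuclear protein that binds PA28γ, the activator made from Psme3, and modulates which proteins the activated core degrades. Its intensities were 692 and 514 in pre-βgal, 2086 and 1736 in post-βgal, 428 and 513 in pre-A20 and 1401 and 1903 in post-A20. Every array after resection lay above every array before it. The transcript rose after resection by 1.65 on the log2 scale in βgal livers (standard error 0.23, adjusted p = 0.0104 in limma) and by 1.77 in A20 livers (standard error 0.23, adjusted p = 0.0102). As the average over both transgenes the rise was 1.71 (standard error 0.16, adjusted p = 0.00117), a fold of 3.27 with a 95% interval of 1.34 to 2.07 in log2 units. Both rises differed by 0.12 (standard error 0.32, adjusted p = 0.879), with an interval of -0.61 to 0.85. The A20 minus βgal difference was -0.34 before resection and -0.22 after it, and neither passed the test (adjusted p = 0.396 and 0.591 in limma). In bulk liver, a change in the number of cells that express a gene and a change in RNA per cell cannot be told apart.

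Only 1 probe set reads Psme3ip1. Of the single comparisons, the one in βgal livers did not pass without either post-βgal array (adjusted p = 0.0819 without replicate 1 and 0.0581 without replicate 2) or with only its own 4 arrays in the fit (0.0633). That in A20 livers did not pass without pre-A20 replicate 1, pre-A20 replicate 2 or post-A20 replicate 2 (0.0691, 0.0805 and 0.0996). The average over transgenes passed in all 20 alternatives, with differences of 1.60 to 1.82 when 1 array was left out. Of cell cycle genes, 9 of 10 listed ones were tested and 3 were called higher in the same average, where 6.14% of all genes were called. Their summed intensity was 5260 to 8582 before resection and 9616 to 14818 after it. In βgal livers the group means of Mki67, Ccna2 and Bub1 did not rise after resection, while those of the others did. The part of cell cycle genes in the change of Psme3ip1 was not tested.

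A pair of starts are annotated for Psme3ip1, the only member called. Both windows of 250 bases before to 50 bases after the start are shown (RefSeq, GRCm38.p6, minus strand, 5′ to 3′). The upstream start, chr8:94601677-94601976, held 3 CCAAT boxes, in capitals, 1 of them on the opposite strand and so written ATTGG. The downstream start, chr8:94591315-94591614, held none, and neither window held the antioxidant response core TGACNNNGC.
Psme3ip1, upstream start: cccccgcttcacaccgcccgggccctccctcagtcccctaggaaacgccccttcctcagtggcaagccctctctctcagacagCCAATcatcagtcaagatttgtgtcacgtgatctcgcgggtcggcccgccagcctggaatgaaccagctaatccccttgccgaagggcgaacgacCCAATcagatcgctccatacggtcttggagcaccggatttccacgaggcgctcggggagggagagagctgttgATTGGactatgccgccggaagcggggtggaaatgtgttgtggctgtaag
Psme3ip1, downstream start: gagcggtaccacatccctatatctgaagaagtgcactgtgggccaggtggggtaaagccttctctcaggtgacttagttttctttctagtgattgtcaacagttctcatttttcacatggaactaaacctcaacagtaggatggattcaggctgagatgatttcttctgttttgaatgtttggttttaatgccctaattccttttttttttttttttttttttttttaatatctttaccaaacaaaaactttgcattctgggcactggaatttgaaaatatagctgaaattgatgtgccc

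**Figure D2:**
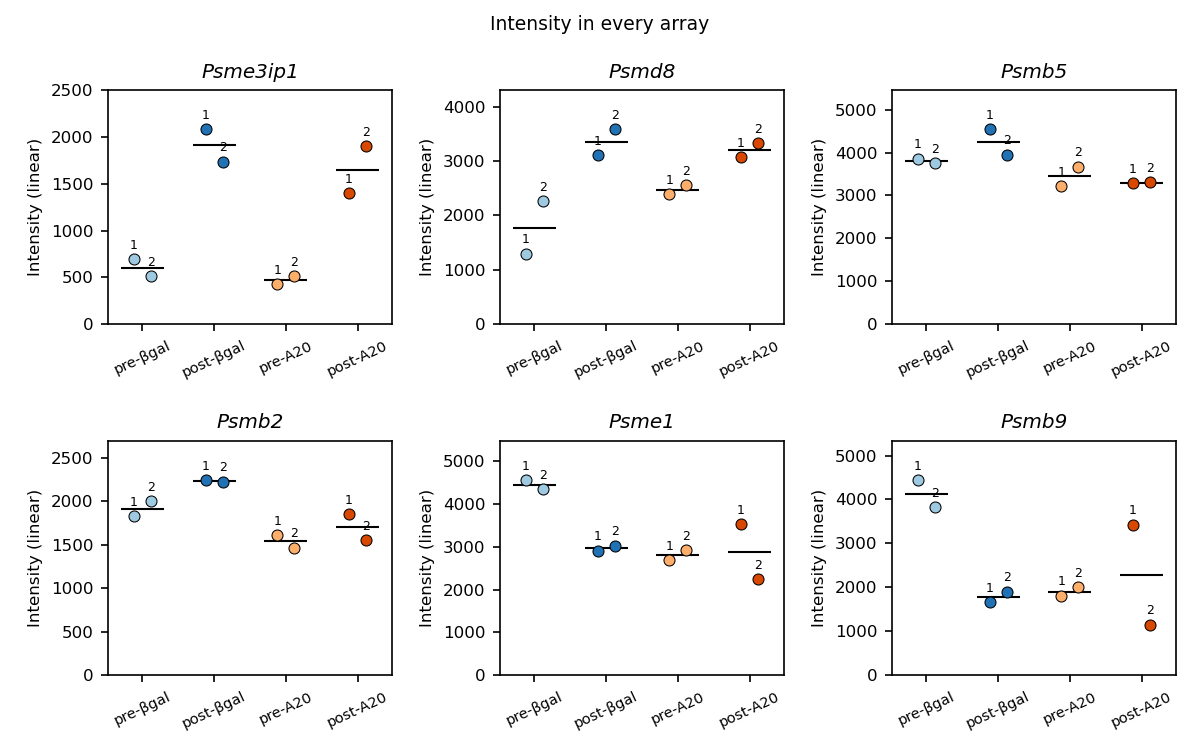
Linear intensity of 6 genes in each of the 8 arrays, 1 point per array with its replicate number, and the mean of each pair as a line. Psme3ip1 separates by resection, Psmd8 does so with less distance, Psmb5 and Psmb2 have lower group means with A20 than with βgal at both times, and Psme1 and the immunoproteasome subunit Psmb9 are highest in pre-βgal.

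In βgal livers, resection was followed by mostly small positive differences among the members. Of 46 genes, 37 had a log2 difference above 0 between post-βgal and pre-βgal, beside 42.5% of all genes tested, and their median was 0.17 beside -0.05 over all genes. The median was 0.07 without post-βgal replicate 1 and 0.23 without post-βgal replicate 2. Psme3ip1 was the 1 member called, where 3.99% of all genes were. Both post-βgal arrays lay above both pre-βgal arrays for 19 members (background 20.4% of all genes) and below them for 2 (33%), the latter being Psma3 and Psme1. By subcomplex the median was 0.38 for the 6 ATPases and 0.37 for the 8 lid subunits, 0.17 for the alpha ring and 0.07 for the beta ring. No gene of these rings and caps passed the test, and 8 members, 5 of them among the 31, had an unadjusted p under 0.05 (24% of all genes).

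Psmd8, a lid subunit, came nearest to a call among the 31. Its intensities were 1294 and 2257 in pre-βgal, 3103 and 3591 in post-βgal, 2389 and 2555 in pre-A20 and 3071 and 3325 in post-A20. All arrays after resection were above all arrays before it, with pre-βgal replicate 1 far below the rest. The log2 difference was 0.96 in βgal livers (standard error 0.25, adjusted p = 0.0705 in limma), 0.37 in A20 livers (adjusted p = 0.513) and 0.66 on average (standard error 0.18, adjusted p = 0.0660). The average passed the threshold without pre-βgal replicate 1, where it was 0.47 (adjusted p = 0.0476), without pre-βgal replicate 2 (0.86, adjusted p = 0.00471), with a covariate for the actin ratio (0.59, adjusted p = 0.00602, in a fit that called 14.1% of all genes) and with the replicate number as a block (adjusted p = 0.0150 within transgene and 0.0399 over all arrays). It did not pass in the other 15 alternatives, among them the fit without both βgal replicate 1 arrays (0.52, adjusted p = 0.0676), and over all 20 the adjusted p was 0.00471 to 0.208.

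The lid subunit Psmd12 had intensities of 1523 and 1444 in pre-βgal, 2282 and 2163 in post-βgal, 1425 and 1742 in pre-A20 and 1666 and 1581 in post-A20. The post-βgal pair stood above all other arrays. The difference was 0.58 in βgal livers (standard error 0.17, adjusted p = 0.0941 in limma) and 0.04 in A20 livers (adjusted p = 0.930), and the interaction of -0.54 did not pass the test (adjusted p = 0.297). Psmd14, the lid enzyme that cuts the ubiquitin chain off the substrate, had a difference of 0.40 in βgal livers (adjusted p = 0.326) and 0.15 in A20 livers (adjusted p = 0.798). Among the ATPases, which form the ring that unfolds the substrate, Psmc6 (0.56), Psmc1 (0.54) and Psmc4 (0.52) had the largest differences in βgal livers. Their adjusted p values were 0.204, 0.205 and 0.179.

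In A20 livers, the members had no common direction after resection. The log2 difference between post-A20 and pre-A20 was above 0 for 23 of 46 genes (54.4% of all genes) and the median was -0.01. It turned to 0.03 with quantile scaling, and leaving out 1 array gave -0.15 (without pre-A20 replicate 1) to 0.08 (without pre-A20 replicate 2), with -0.10 and 0.07 when post-A20 replicate 1 or 2 was left out. Psme3ip1 was the 1 gene called, where 2.01% of all genes were. Both post-A20 arrays were above both pre-A20 arrays for 9 members (background 29.4%), among them the base subunits Psmd2 and Psmd4, which dock ubiquitin chains or their carriers. They were below for 5 (22.3%), 3 of which, Psmg1, Psmg2 and Psmg3, encode chaperones that assemble the alpha ring. Psmg1 had intensities of 825 and 1311 in pre-A20 and 662 and 643 in post-A20, beside 1025 and 892 in pre-βgal and 1095 and 877 in post-βgal. The post-A20 pair was lowest, and the pre-A20 pair was wide apart. The difference of -0.66 did not pass the test (standard error 0.23, adjusted p = 0.201 in limma). An unadjusted p under 0.05 was reached by 4 members (16.6% of all genes) and by 0 of the 31 subunits of the 26S particle, and for all 31 the 95% interval lay within 2-fold in either direction.

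**Figure D3:**
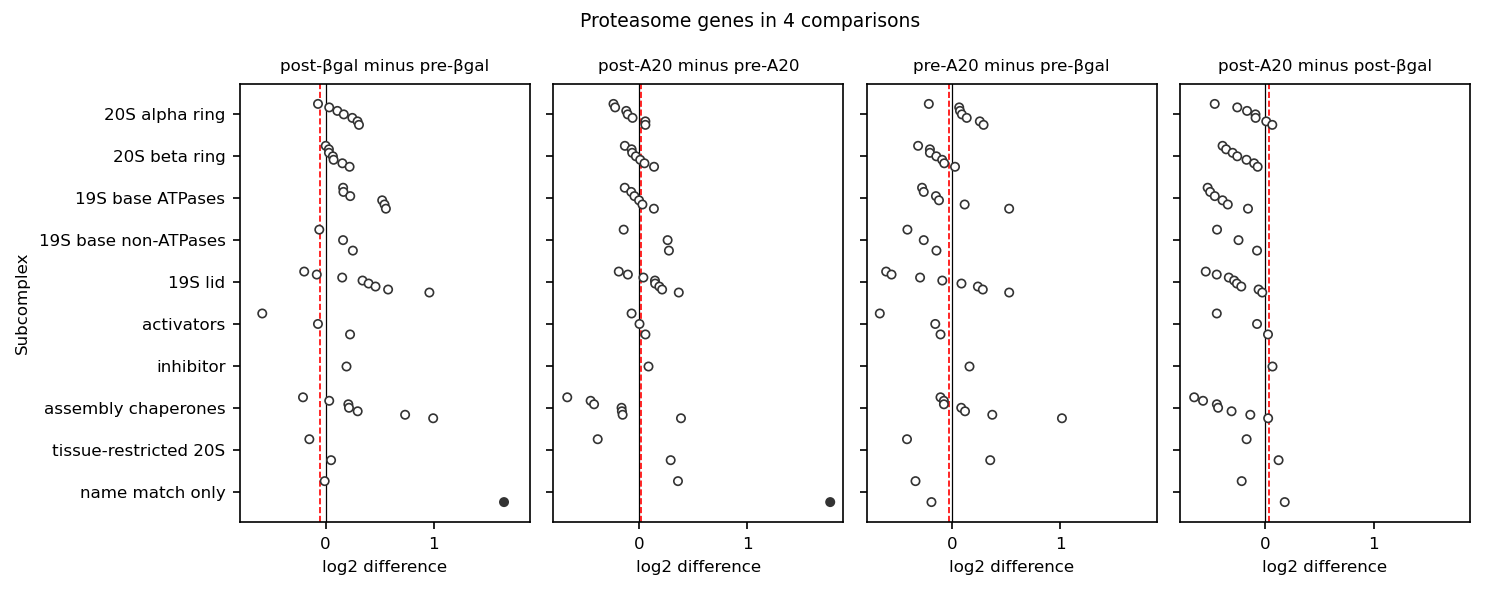
Log2 differences of the 46 genes in the 4 comparisons of 2 groups, 1 point per gene in rows by subcomplex, with filled points for genes called. The red dashed line is the median of all 17790 genes, and most points lie right of it for post-βgal minus pre-βgal and left of it for post-A20 minus post-βgal, comparisons that share the post-βgal arrays.

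Before resection, the log2 differences between A20 and βgal livers ran from -0.67 (Psme1) to 1.01 (Psmg2), and for 39 of 46 members the 95% interval lay within 2-fold in either direction. The value of Psmg2 is that of its tested probe set, on which the pre-βgal replicates differed by -1.84 in log2 (replicate 1 minus 2). On its other probe sets they differed by -0.82 and -0.02. The log2 difference, pre-A20 minus pre-βgal, was above 0 for 19 of 46 members (44.9% of all genes), with a median of -0.09 beside -0.03 over all genes. No member was called, while 4.63% of all genes were, and 5 members had an unadjusted p under 0.05 (23.4% of all genes). The arrays did not overlap for 4 members that were higher with A20 (background 22.1%) and 9 that were lower (29.3%). With pre-A20 replicate 1 left out the median was 0.07, with pre-A20 replicate 2 left out -0.20, and with pre-βgal replicate 1 left out -0.0045. Without pre-βgal replicate 2 there were 6 calls, 4 higher (Psmb11, Psmc6, Psmd8 and Psmg2) and 2 lower (Psmd3 and Psmd11), all then resting on pre-βgal replicate 1 as the lone array of its group. That fit called 13.5% of all genes, close to the members' share.

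Psme1, a subunit of the PA28αβ activator that interferon gamma induces, had the smallest p among the members in this comparison. Its intensities were 4565 and 4352 in pre-βgal, 2908 and 3031 in post-βgal, 2687 and 2918 in pre-A20 and 3533 and 2239 in post-A20. The pre-βgal pair was highest and the post-A20 pair far apart. The log2 difference between pre-A20 and pre-βgal was -0.67 (standard error 0.21, adjusted p = 0.112 in limma), and that between post-βgal and pre-βgal -0.58 (adjusted p = 0.150). The other activators, Psme3 of the nucleus and Psme4 (PA200), had differences of -0.16 and -0.11 between pre-A20 and pre-βgal. The inhibitor Psmf1 (PI31) had differences of 0.06 to 0.19 in the 4 comparisons of 2 groups, with adjusted p values of 0.512 to 0.858.

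The 3 highest arrays and the lowest array of the immunoproteasome subunits, which are no members, were those of Psme1. Psmb9 had intensities of 4443 and 3818 in pre-βgal, 1652 and 1897 in post-βgal, 1803 and 1995 in pre-A20 and 3423 and 1147 in post-A20. Both pre-βgal arrays were highest and post-A20 replicate 1 was far above replicate 2. Psmb8, Psmb9 and Psmb10 had log2 differences of -1.51, -1.11 and -1.41 between pre-A20 and pre-βgal, and 0 of the 3 was called in any comparison (lowest adjusted p = 0.0970 in limma). Psmb5, Psmb6 and Psmb7 had differences of -0.15, -0.20 and -0.09 in the same comparison. The 22 of 24 listed interferon gamma targets that were tested summed to 79799 and 82216 in pre-βgal, 49647 and 63490 in post-βgal, 50557 and 43652 in pre-A20 and 81251 and 42523 in post-A20, with none below 40, and their part in the values of Psme1 was not tested.

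After resection, most members were lower with A20 than with βgal by amounts that did not pass the test. The log2 difference, post-A20 minus post-βgal, was above 0 for 7 of 46 members (54.6% of all genes), and the median was -0.25 beside 0.03 over all genes. No member was called, where 1.42% of all genes were, and 9 had an unadjusted p under 0.05 (21.5%). Both post-A20 arrays were below both post-βgal arrays for 23 members (background 26.4%) and above them for 2 (33.7%). Among the 31 subunits of the 26S particle, 18 were lower in both arrays and 0 higher, including all 6 ATPases and 5 of the 7 beta subunits. The median was -0.43 for the ATPases, -0.28 for the lid, -0.26 for the beta ring and -0.09 for the alpha ring, and -0.44 for the 7 assembly chaperones. The post-βgal pair holds 1 of the arrays with a high actin ratio, and the median of the members was -0.17 without both βgal replicate 1 arrays and -0.21 with the ratio as a covariate.

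Psmc4 and Psmd10, whose array values follow, had larger differences than the members' median of -0.25. Psmc4 had intensities of 1438 and 1093 in pre-βgal, 2078 and 1574 in post-βgal, 1043 and 1221 in pre-A20 and 1259 and 1231 in post-A20. Post-βgal replicate 1 was highest and the post-A20 pair lay among the arrays from before resection. The difference between post-A20 and post-βgal was -0.53 (standard error 0.21, adjusted p = 0.197 in limma). Psmd10, a base chaperone also known as gankyrin, had intensities of 382 and 317 in pre-βgal, 375 and 497 in post-βgal, 292 and 469 in pre-A20 and 306 and 234 in post-A20. Its difference of -0.66 was the largest of the members in this comparison (standard error 0.24, adjusted p = 0.175). Its pre-A20 replicates were about as far apart as these groups.

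Averaged over both times, the A20 minus βgal difference had a median of -0.22 among the members (10 of 46 above 0) beside -0.00 over all genes (49.7% above 0). The median was -0.13 without pre-A20 replicate 1, -0.15 without post-βgal replicate 1 and -0.11 without both βgal replicate 1 arrays. No member was called, where 8.59% of all genes were, and 11 had an unadjusted p under 0.05 (28%). For 31 of the 31 subunits of the 26S particle, the 95% interval of this average lay within 2-fold in either direction, and for 16 within 1.5-fold. The arrays of A20 and βgal livers did not overlap for 2 members, both lower with A20 (background 5.26%), and for 0 that were higher (5.7%). These were Psmb5, which carries the chymotrypsin-like site, and the ATPase Psmc5. Among the members of smallest p or largest difference in the other subcomplexes were Psma6 (-0.34) of the alpha ring, the ATPase Psmc3 (-0.39), Psmd1 (-0.30) and Psmd2 (-0.24) of the base, Psmd11 (-0.41) and Psmd13 (-0.42) of the lid, Psme1 (-0.37) and the chaperone Psmd5 (-0.26). Their adjusted p values in limma were 0.114 to 0.260. By the same rule the inhibitor Psmf1 (0.11) and the chaperone Psmg2 (0.44) were named, both above 0 and not called. Psmg2 was at -0.023 without pre-βgal replicate 1.

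Psmb5 had intensities of 3855 and 3752 in pre-βgal, 4550 and 3949 in post-βgal, 3217 and 3670 in pre-A20 and 3283 and 3304 in post-A20. Each A20 array was below each βgal array, by little for pre-A20 replicate 2. The average difference was -0.25 (standard error 0.11, adjusted p = 0.166 in limma). Psmb2, another beta subunit, had 1827 and 2004 in pre-βgal, 2245 and 2225 in post-βgal, 1609 and 1467 in pre-A20 and 1849 and 1555 in post-A20. Its average difference of -0.35 gave the smallest p among the members (standard error 0.12, adjusted p = 0.0986), with post-A20 replicate 1 above pre-βgal replicate 1. Psmc5 had 1979 and 1556 in pre-βgal, 2288 and 1696 in post-βgal, 1416 and 1507 in pre-A20 and 1495 and 1349 in post-A20, an average difference of -0.36 (standard error 0.15, adjusted p = 0.146). Replicate 1 was the higher of the pair in both βgal groups.

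**Figure D4:**
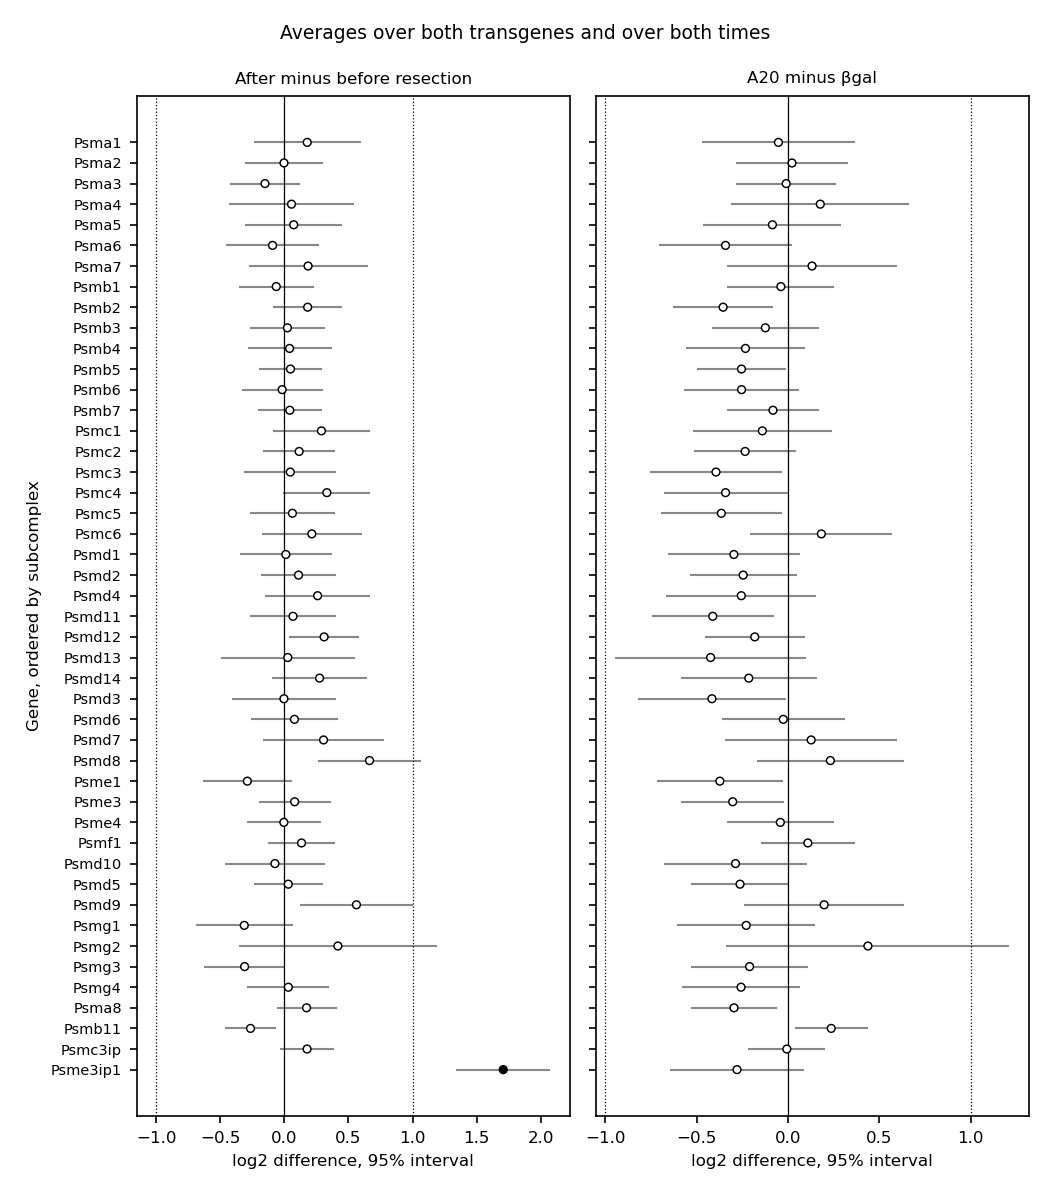
Log2 differences of the 46 genes averaged over both transgenes (left, after minus before resection) and over both times (right, A20 minus βgal), with 95% intervals from limma as lines and dotted lines at 2-fold. Psme3ip1, the filled point at 1.71, is the 1 interval that lies wholly beyond 2-fold.

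Averaged over both transgenes, the members' difference after resection had a median of 0.06, with 34 of 46 above 0 (47.1% of all genes). Leaving out 1 array gave medians of 0.03 (without post-βgal replicate 1 or post-A20 replicate 1) to 0.12 (without pre-A20 replicate 2), and 0.04, 0.11 and 0.10 without pre-A20 replicate 1, post-βgal replicate 2 and post-A20 replicate 2. Psme3ip1 was again the 1 call, where 6.14% of all genes were called, and 5 members had an unadjusted p under 0.05 (22.5%). Psme3ip1 and Psmd8 were the 2 members whose arrays after resection were all above those before it (background 4.5%), and 0 had them all below (3.99%). In the other subcomplexes the smallest p belonged to Psma3 (-0.15), Psmb2 (0.18), Psmc4 (0.33), Psmd4 (0.26), Psme1 (-0.29), Psmf1 (0.13), Psmd9 (0.56) and Psmb11 (-0.26), with adjusted p values of 0.122 to 0.538 in limma. Psmd9, a chaperone of the base, had intensities of 622 and 426 in pre-βgal, 998 and 755 in post-βgal, 578 and 778 in pre-A20 and 726 and 1075 in post-A20. The times did not overlap in βgal livers and did in A20 livers.

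The interaction asks whether the difference between after and before resection was not the same in A20 and βgal livers. Its median was -0.23 among the members, 10 of 46 above 0, beside 0.05 over all genes (56.9% above 0). Leaving out 1 array gave medians of -0.35 (without pre-A20 replicate 1) to -0.09 (without pre-A20 replicate 2), and -0.15, -0.14 and -0.13 without pre-βgal replicate 2, post-βgal replicate 1 and post-A20 replicate 2. No member was called by limma, where 0.0281% of all genes were, and 0 members had an unadjusted p under 0.05 (17.3% of all genes). The precision was lower here, and for 17 of the 31 subunits the 95% interval stayed within 2-fold in either direction. Psmg2 had the largest value, -1.15 (standard error 0.68, adjusted p = 0.405), and rested on 1 array. This chaperone had intensities of 205 and 774 in pre-βgal, 706 and 943 in post-βgal, 803 and 853 in pre-A20 and 696 and 786 in post-A20. Pre-βgal replicate 1 was far below the other 7 arrays, and without pre-βgal replicate 2 Psmg2 was called in the interaction.

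Replicates moved together across the subunits to about the same extent as the groups did. Over the 31 subunits of the 26S particle, the median of log2 intensity minus the gene's mean was 0.07 and -0.06 in pre-βgal, 0.27 and 0.11 in post-βgal, -0.21 and 0.07 in pre-A20 and -0.02 and -0.15 in post-A20. In pre-A20, replicate 1 was above replicate 2 for 5 of the 31, with a median difference of -0.31, while in post-A20 it was above for 26, with a median of 0.14. Over all genes tested the medians in these groups were -0.00 and 0.02. Pre-A20 replicate 1 was the lowest of the 8 arrays for 14 of the 31 subunits, and post-βgal replicate 1 the highest for 11. These counts were not made over all genes. Psma7, of the alpha ring, was at 1306 and 2509 in the pre-A20 pair, and its average difference after resection was 0.18 with both and -0.05 without replicate 1.

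Pre-βgal, the group with the array of lowest RNA integrity, had the widest gaps between replicates. There, 7 of the 97 member probe sets kept differed by more than 1 log2 unit between replicates, beside 3.18% of all probe sets, and 0 did in the other groups. For Psmb3, 1 probe set gave 4546 and 1578, while the tested one gave 2575 and 2519. A probe set that was not tested gave 1430 and 412 for Psmc4, and another gave 244 and 705 for Psme4. The gaps thus ran in both directions. The part of RNA integrity in these values was tested only as a covariate, with which the count of members called was 7 in place of 1 for resection in βgal livers (Psmc1, Psmc4, Psmd8, Psmd9, Psmd12, Psme3ip1 and Psmg2, all higher) and 6 in place of 1 for the average over transgenes. The covariate raised the share of all genes called to 15% and 14.1% in these comparisons, close to the members' shares.

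Probe sets of the same gene did not always have the same sign. Of 25 genes with several probe sets kept, 15 had at least 1 whose average difference after resection was opposite in sign to that of the tested probe set, and 15 had 1 for the A20 minus βgal average. The lid subunit Psmd11, with 8 probe sets, showed this most. Its tested probe set had an average A20 minus βgal difference of -0.41 (adjusted p = 0.114 in limma). Another read 227 and 253 in pre-βgal, 241 and 246 in post-βgal, 320 and 343 in pre-A20 and 335 and 316 in post-A20. All 4 A20 arrays were above all 4 βgal arrays, by 0.42 on average (standard error 0.08, adjusted p over all probe sets = 0.0388). Tested as the mean of its probe sets, Psmd11 had a difference of 0.02. For the ATPase Psmc1, a weak probe set read 92.7 and 101 in pre-βgal and 46.2 and 56.0 in pre-A20, a difference of -0.75 (adjusted p over all probe sets = 0.0277), while the tested one had 0.12.

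Genes of the same pathway outside the rule were also tested, and their calls are set beside the share of all genes called in that comparison. Of 17 proteasome partners tested, the subunit Sem1 included, 0 was called in 6 comparisons. On average over both times 1, Ubqln4, a shuttle for ubiquitinated proteins, was called lower with A20 (-0.71, adjusted p = 0.0418 in limma). In that average 8.59% of all genes were called. Pomp, the chaperone that matures the core, and Nfe2l1 (NRF1), which drives subunit genes when proteasome activity falls, were among the 16 not called. Of 13 genes of ubiquitin and its conjugation, only Ube2c and Cdc34 were called. Ube2c, the conjugating enzyme of mitotic exit, was higher after resection in A20 livers (1.00, adjusted p = 0.0259 in limma, beside 2.01% of all genes called). It was also called higher in the average after resection (0.74, beside 6.14%) and in the transgene average (0.48, beside 8.59%). Cdc34 was called lower with A20 in the transgene average (-0.65, adjusted p = 0.0306). Of 14 genes of the p97 segregase, which extracts ubiquitinated proteins, Ubxn2a was called higher in post-βgal than in pre-βgal (1.11, adjusted p = 0.0396, beside 3.99% of all genes). Ubxn1 was called lower in pre-A20 than in pre-βgal (-1.02, adjusted p = 0.0344, beside 4.63%) and with A20 on average (-0.79, beside 8.59%).

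NRF2, the main transcription factor of the antioxidant response, binds the same kind of element as NRF1. Of 14 tested targets, 0 was higher and 3 were lower in pre-A20 than in pre-βgal, namely Srxn1 (-1.40), Gstm3 (-0.99) and Nqo1 (-0.82), with adjusted p values of 0.0192 to 0.0440 in limma, where 4.63% of all genes were called. The same 3 were lower with A20 on average (8.59% of all genes). Another 3, the glutathione transferases Gsta2 (-1.25) and Gsta4 (-1.02) and the epoxide hydrolase Ephx1 (-0.45), fell after resection on average over both transgenes (adjusted p = 0.00728, 0.0111 and 0.0377), where 6.14% of all genes were called. In this average Hmox1 (1.08), Srxn1 (0.57), Txnrd1 (0.37) and Nqo1 (0.12) were above 0. None of them was called (adjusted p = 0.0532 to 0.647 in limma). The remaining targets were below 0 and not called. In single transgenes Gstm3 was called lower after resection with βgal and Gsta2 with A20.

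Promoters were read for 38 of the 46 genes, with 41 starts (RefSeq, GRCm38.p6). No entry was matched for Psma8, Psmb1, Psmb2, Psmb7, Psmc3, Psmd3, Psmd7 and Psmg2. Searched on both strands, the antioxidant response core TGACNNNGC was found in 6 of 41 member promoters (14.6%) and in 12.4% of all 32851 promoters of the table, and the CCAAT box in 15 of 41 (36.6%) and 37.4%. The 6 were those of Psmb5, Psmb6, Psmc6, Psmd9, Psmd12 and Psme4. Those of Psmb5 and Psmd12 are shown, members described above, beside that of Psmd8, the subunit nearest to a call. Capitals mark the core, on the printed strand in Psmb5 (chr14:54617946-54618245, minus strand) and on the opposite strand in Psmd12 (chr11:107479278-107479577, plus strand), and no match to either motif lay in Psmd8 (chr7:29180624-29180923, minus strand).
Psmb5: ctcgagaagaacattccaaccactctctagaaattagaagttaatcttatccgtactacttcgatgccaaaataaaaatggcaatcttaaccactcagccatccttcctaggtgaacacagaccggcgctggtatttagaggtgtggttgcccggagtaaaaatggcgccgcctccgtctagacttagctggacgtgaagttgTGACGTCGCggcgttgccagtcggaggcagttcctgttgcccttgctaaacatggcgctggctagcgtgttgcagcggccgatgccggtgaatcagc
Psmd12: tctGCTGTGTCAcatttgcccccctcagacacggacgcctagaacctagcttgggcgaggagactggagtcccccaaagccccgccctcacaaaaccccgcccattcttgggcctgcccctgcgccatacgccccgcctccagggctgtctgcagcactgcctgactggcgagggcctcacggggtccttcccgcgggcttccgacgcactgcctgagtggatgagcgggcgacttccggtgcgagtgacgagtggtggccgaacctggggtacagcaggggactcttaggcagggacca
Psmd8: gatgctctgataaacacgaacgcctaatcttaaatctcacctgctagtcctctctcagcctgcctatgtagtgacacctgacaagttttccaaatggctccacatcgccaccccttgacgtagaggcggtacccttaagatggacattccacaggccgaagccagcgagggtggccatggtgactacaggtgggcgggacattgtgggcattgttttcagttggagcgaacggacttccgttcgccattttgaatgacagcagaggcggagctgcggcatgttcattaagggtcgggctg

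Of the tissue-restricted subunits, Psma8 was read below the array medians of 153 to 166, and Psmb11 around or above them. Psma8 had 89.5 and 72.4 in pre-βgal, 97.7 and 72.0 in post-βgal, 54.0 and 58.7 in pre-A20 and 79.8 and 66.1 in post-A20, and its average A20 minus βgal difference was -0.29 (adjusted p = 0.107 in limma). Psmb11 had 152 and 192 in pre-βgal, 143 and 163 in post-βgal, 234 and 212 in pre-A20 and 164 and 171 in post-A20, with an average difference after resection of -0.26 (adjusted p = 0.122). Pre-A20 was highest for Psmb11. Psmc3ip, a protein of meiotic recombination, had group means of 204 to 266 and differences of -0.01 and 0.36 after resection in βgal and A20 livers, and was not called.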

How the data were processed

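Total RNA of mouse liver was measured on 8 Affymetrix whole-genome mouse arrays, 2 per group, each with RNA of 3 mice. The deposited file holds normalized intensities, linear, for every probe set. In the authors' methods these come from dChip with invariant set normalization and a model of perfect-match probes, while the submitters' processing notes give MAS5. The sources used here do not settle which applies. No scaling was added. Nothing states whether the pools of a group came from separate cohorts, so p-values measure the spread between these arrays, and their number limits the precision.

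Gene symbols were those of the platform annotation, with 1 symbol for 34945 probe sets, several for 932 and none for 9160, and 64 control probe sets were left out. After adding 16, log2 was taken. Probe sets whose mean reached 40 in any group stayed (42703), and the one with the highest mean stood for its gene. The study called genes by a confidence bound of the fold change from dChip, which needs probe-level errors. Here limma 3.58.1 in R 4.3.3 was used (lmFit, eBayes with a trend, all 8 arrays, 1 mean per group, 4 residual and 4.52 prior degrees of freedom, 7 comparisons, 2-sided), with Benjamini-Hochberg adjustment over 17790 genes. Folds are on the log2(intensity + 16) scale.

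Members and gene lists were chosen with earlier results of these data known, so no p adjusted over a list is given. Of 179 list symbols 160 were matched. Named by rule were members called, those of smallest p or largest difference per subcomplex in either average, probe sets of opposite sign, and up to 3 genes per list. Other genes, and the array values shown, were chosen after values were seen. Alternatives changed the offset, filter, scaling, variance model, probe set choice, arrays in the fit and covariates. Raw probe files and the transgenes were not used here.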

Additional observations from a re-analysis of the deposited data

How the results depend on the processing

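Counts of members called kept within 1.5 times of the values above with other offsets, filters, quantile scaling, no variance trend and the mean of probe sets, and with variances estimated over all probe sets, an alternative added after seeing the data. For post-βgal minus pre-βgal (1 call), only the 4 arrays compared gave 0, the replicate number as a block gave 3 within transgene (11.8% of all genes called) and 2 over all arrays (4.87%), the RNA integrity covariate gave 7 (15%), and leaving out 1 array gave 0 to 3 (5.85% where 3). For the average after resection (1 call) the block gave 4 within transgene (11.7%) and 2 over all arrays (6.45%), the covariate gave 6 (14.1%), and leaving out 1 array 1 to 3 (8.43% and 8.32% where 3, without pre-βgal replicate 1 and 2). For post-A20 minus pre-A20 (1 call) the covariate gave 2 (6.67%), adding Psmb11 as lower, and leaving out 1 array 0 to 1. Leaving out 1 array gave 0 to 6 calls for pre-A20 minus pre-βgal, 0 to 7 for the transgene average and 0 to 1 for the interaction, each highest without pre-βgal replicate 2 (13.5%, 19.2% and 0.753% of all genes), and 0 throughout for post-A20 minus post-βgal. A group left with 1 array is assumed to vary like the others, and the causes were not tested.

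Alternatives for single members were computed only for those named by rule, in the comparison that named them, and signs turned for 3 of these. Psma7 was at 0.18 in the average after resection and at -0.048 to 0.42 with 1 array left out, lowest without pre-A20 replicate 1. Psmd11 was at 0.024 in the transgene average as the mean of probe sets (-0.41). Psmg2 was at -0.12 there with the covariate, -0.13 without both βgal replicate 1 arrays and -0.023 to 0.90 with 1 array left out, lowest without pre-βgal replicate 1 (0.44 with all arrays).

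Before and after pools may hold the same mice, but no source ties the replicate numbers to animals, so the numbers were not taken as pairs. Deviations of same-numbered arrays correlated at 0.62 between pre-βgal and post-βgal and from -0.14 to 0.16 between the other groups, over 17790 genes. Replicate 1 of pre-βgal and of post-βgal were also the arrays with high actin ratios (7.0 and 3.64). The part of RNA integrity in this correlation was not tested. A crossed block for pre-A20 minus pre-βgal, added after seeing the data, gave 0 calls. The block within transgene gives no value between transgenes.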
